A study of Mus musculus with 6 samples.

Results

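The genes described are 9 genes that mark fibrocytes of the spiral ligament or cause deafness through the lateral wall of the cochlea: *Coch*, *Otos*, *Pou3f4*, *Tbx18*, *Slc26a4*, *Slc4a11*, *Car3*, *Car2* and *Aqp1*. They were chosen by name out of 51802 gene symbols, and counts and FPKM values (fragments per kilobase, a level corrected for transcript length and for sample depth) were summed over the transcripts of each symbol. All 9 symbols were listed in each sample, and all 9 were among the 17136 genes that passed the filter on low counts. Bulk RNA came from the cochleae of 2 months old mice on a C57/BL6J background, with 3 wildtype samples (replicates 3, 4 and 5) and 3 *Pou4f3(Δ/+)* samples (replicates 1, 2 and 3), and values of single samples are given in that order. The *Pou4f3(Δ/+)* mice carry 1 wildtype allele and 1 knock-in allele of *Pou4f3*. The knock-in allele has the short deletion of a human family with the dominant deafness DFNA15, and a C-to-T change added so that translation ends early. Both groups share the age-related hearing loss allele of *Cdh23* that this strain carries. The allele is present in every cell of the mouse, whereas *Pou4f3* is a transcription factor of hair cells. The sources do not say whether a sample is 1 mouse or a pool, so p-values measure the spread between these samples only.

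The spiral ligament is the connective tissue that joins the stria vascularis, the secretory epithelium of the lateral wall, to the bony wall of the cochlea. Its fibrocytes take up potassium that leaves the hair cells and pass it through gap junctions towards the stria vascularis, which returns it to the endolymph. They also secrete much of the extracellular matrix of the region, and mutations in several of their genes cause deafness in humans or mice.

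Summed counts lay between 14295069 and 17696784 per sample, and the 9 genes together held 0.776% to 1.01% of them. No gene had an adjusted p under 0.05 between genotypes by edgeR's quasi-likelihood test, 0 of 17136 (0%), while 7.64% had an unadjusted p under 0.05 and DESeq2 called 0.373%. The median log2 fold change over all tested genes was -0.003. *Pou4f3(Δ/+)* replicates 1 and 2 stood apart from the other samples: the summed level of 9 B cell markers was 539 and 593 CPM (counts scaled to the depth of the sample) there, 295 in *Pou4f3(Δ/+)* replicate 3 and 235 to 286 in wildtype. When *Pou4f3(Δ/+)* replicate 3 was left out, edgeR called 1.1% of genes. In bulk RNA, fewer cells of a type and less RNA per cell cannot be told apart.

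The 9 genes spanned a wide range of levels, and 1 of them, *Slc4a11*, had an unadjusted p under 0.05 between genotypes over all 6 samples by edgeR. That count was 2 by DESeq2 (6.72% of all genes), with *Car2* as the other, 3 without the filter (7% of all genes) and 5 without *Pou4f3(Δ/+)* replicate 3 (17.4% of all genes), namely *Slc4a11*, *Car3*, *Slc26a4*, *Car2* and *Tbx18*. Over all 6 samples, no member had an adjusted p under 0.05 by edgeR or by DESeq2. *Slc4a11* was 0.604 times as abundant in *Pou4f3(Δ/+)* as in wildtype by the fit, *Car3* was 0.710 times and *Car2* was 1.26 times, and the intervals of the last 2 included no change. The fitted log2 fold change was below 0 for 6 members and above 0 for 3, beside 50.6% of all genes below 0, and the median of the 9 was -0.17. This median was -0.039 without wildtype replicate 5, and -0.076 and -0.046 without *Pou4f3(Δ/+)* replicates 1 and 2 in turn, and with both of these left out it was 0.068, with 7 of the 9 above 0. Every *Pou4f3(Δ/+)* FPKM lay below every wildtype FPKM for *Slc4a11*, as for 6.03% of all genes, and above every wildtype FPKM for *Aqp1*, as for 6.02%.

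**Figure D1:**
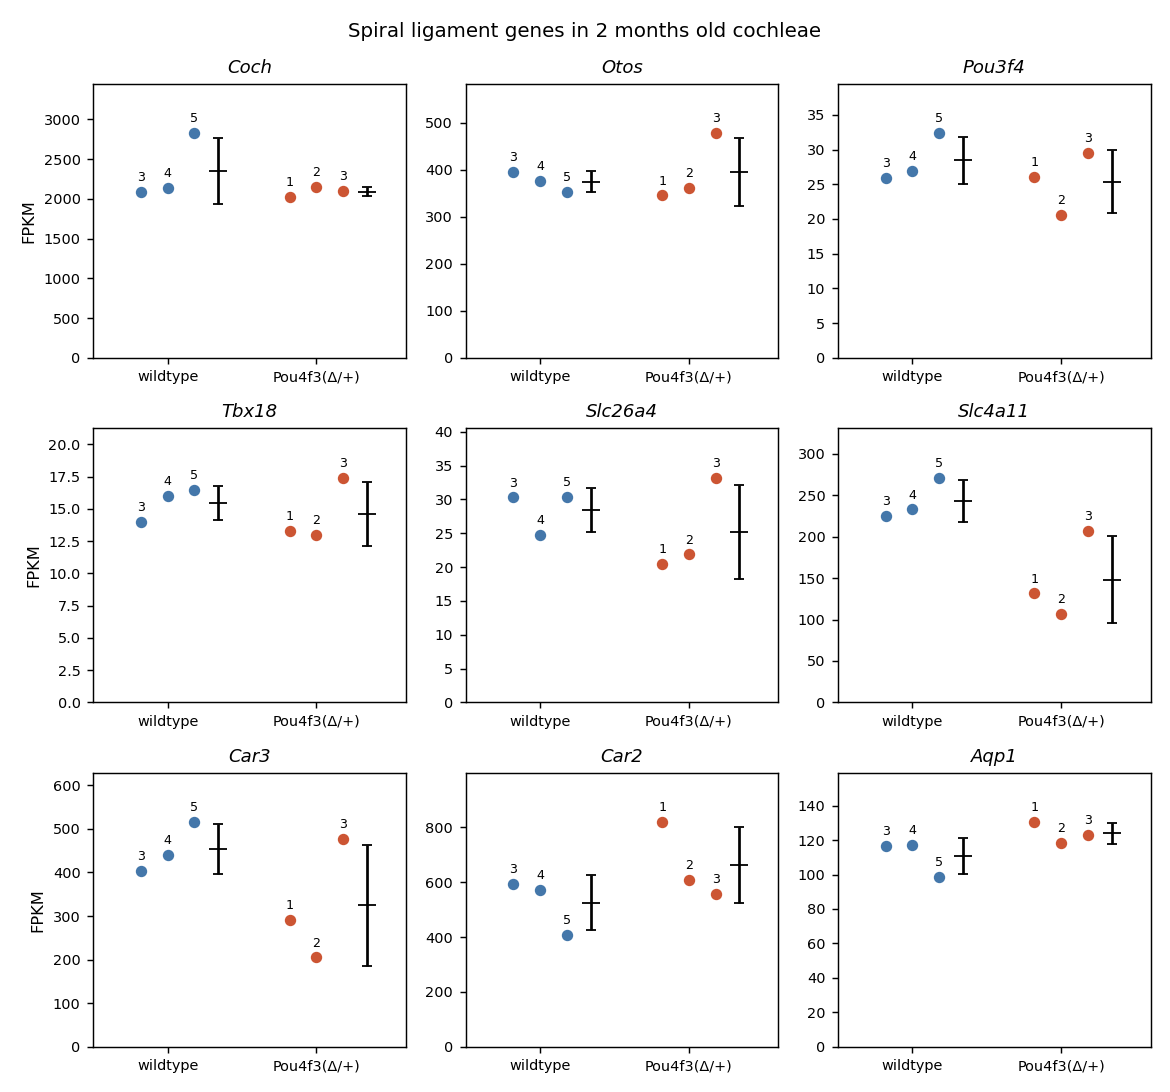
FPKM of each of the 9 genes by genotype, on linear axes that start at 0. Points are samples with their replicate numbers, and the black mark gives the mean and SD of 3 samples. The groups overlap for all genes but *Slc4a11*, whose wildtype samples lie at 225 to 271 and its mutant samples at 107 to 207, and *Aqp1*, at 98.5 to 117 and 118 to 130.4.

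By level per length, *Coch* came first, with a mean of 2219.7 FPKM over the 6 samples, and ranked 14 among the tested genes. *Car2* followed at 594 FPKM, then *Car3* at 389 and *Otos* at 385, *Slc4a11* at 196 and *Aqp1* at 117, while *Pou3f4* at 26.9, *Slc26a4* at 26.8 and *Tbx18* at 15.02 were far lower. Within wildtype the ranges of *Car2* and *Car3* overlapped, as did those of *Pou3f4* and *Slc26a4*, so these neighbours did not differ beyond their spread. Within *Pou4f3(Δ/+)* the order of *Car3* and *Otos* was the opposite by mean, with overlapping ranges, and the range of *Slc4a11* reached down past that of *Aqp1*.

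*Coch* and *Otos*, the genes of secreted fibrocyte proteins, did not differ between genotypes beyond the spread of the samples. *Coch* (ENSMUSG00000020953, GRCm38 chr12:51593341-51605771, plus strand) encodes cochlin, an extracellular matrix protein whose mutations cause the dominant deafness DFNA9. It had 2084, 2134 and 2828 FPKM in wildtype against 2029.5, 2147 and 2095 in *Pou4f3(Δ/+)*. The 3 *Pou4f3(Δ/+)* samples lay close together and overlapped wildtype, in which replicate 5 was the highest sample. The means were 2349 ± 415 for wildtype and 2091 ± 59.1 for the mutant samples (SD, n = 3 each). By the fit, the log2 fold change was -0.17 (standard error 0.13, 95% interval -0.47 to 0.13, adjusted p = 0.754 by edgeR's quasi-likelihood test), and without wildtype replicate 5 it was -0.01.

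*Otos* (ENSMUSG00000044055, chr1:92644218-92648841, minus strand) encodes otospiralin, a small secreted protein made by fibrocytes of the inner ear. It had 395, 377 and 352.5 FPKM in wildtype against 345, 360.5 and 478 in *Pou4f3(Δ/+)*. The groups overlapped, and *Pou4f3(Δ/+)* replicate 3 was the highest of all 6 samples. By the fit, the log2 fold change was 0.07 (standard error 0.12, 95% interval -0.20 to 0.34, adjusted p = 0.895). It was -0.07 without *Pou4f3(Δ/+)* replicate 3, so this sample set its sign.

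The transcription factor genes *Pou3f4* and *Tbx18* lay slightly lower by mean in *Pou4f3(Δ/+)*, with overlapping groups. *Pou3f4* (ENSMUSG00000056854, chrX:110814280-110817207, plus strand) encodes a POU-domain factor of the otic mesenchyme, whose mutations cause X-linked deafness. It had 26.0, 26.95 and 32.4 FPKM in wildtype against 26.05, 20.6 and 29.5 in *Pou4f3(Δ/+)*. *Pou4f3(Δ/+)* replicate 2 was the lowest sample and wildtype replicate 5 the highest. By the fit, the log2 fold change was -0.17 (standard error 0.13, 95% interval -0.47 to 0.14, adjusted p = 0.758 by edgeR). It was -0.046 without *Pou4f3(Δ/+)* replicate 2, -0.060 without wildtype replicate 5 and -0.27 without *Pou4f3(Δ/+)* replicate 3.

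*Tbx18* (ENSMUSG00000032419, chr9:87702800-87731260, minus strand) encodes a T-box factor needed for otic fibrocytes to form in mice. It had 14.0, 15.99 and 16.5 FPKM in wildtype against 13.3, 13.0 and 17.4 in *Pou4f3(Δ/+)*. The highest sample was again *Pou4f3(Δ/+)* replicate 3, while replicates 1 and 2 were the lowest. The log2 fold change was -0.09 (standard error 0.12, 95% interval -0.36 to 0.18, adjusted p = 0.850). Without single samples it lay between -0.22 (*Pou4f3(Δ/+)* replicate 3 left out) and -0.024 (*Pou4f3(Δ/+)* replicate 2 left out). Exons of *Tbx18* share 970 bases with those of *D030062O11Rik* on the opposite strand. The sources state no strand setting, so reads of the pair cannot be told apart. That gene averaged 26.6 counts per sample. Of the 50-base windows of the main *Tbx18* transcript, 18.4% also occurred, in either orientation, in transcripts of other genes, the largest share among the 9 members. *D030062O11Rik* was among these genes, so the share includes windows from the overlap.

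The membrane transporter genes were *Slc26a4* and *Slc4a11*, and *Slc4a11* had the smallest p of the 9. *Slc26a4* (ENSMUSG00000020651, chr12:31519827-31559969, minus strand) encodes pendrin, an exchanger of chloride, iodide and bicarbonate that sits in epithelial cells bordering the ligament and is mutated in Pendred syndrome. It had 30.3, 24.7 and 30.3 FPKM in wildtype against 20.5, 21.9 and 33.2 in *Pou4f3(Δ/+)*. *Pou4f3(Δ/+)* replicates 1 and 2 lay below all wildtype samples and replicate 3 above them. The log2 fold change was -0.19 (standard error 0.17, 95% interval -0.57 to 0.18, adjusted p = 0.776 by edgeR). It was -0.076 and -0.11 without *Pou4f3(Δ/+)* replicates 1 and 2 in turn, and -0.42 without replicate 3.

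*Slc4a11* (ENSMUSG00000074796, chr2:130684113-130697519, minus strand) encodes a membrane transporter of the bicarbonate transporter family, found in spiral ligament fibrocytes and in the corneal endothelium, and its mutations cause corneal dystrophy with deafness. It had 225, 233 and 271 FPKM in wildtype against 131, 107 and 207 in *Pou4f3(Δ/+)*, from 5179 to 14760 counts per sample. The groups did not overlap, and *Pou4f3(Δ/+)* replicate 3 was much nearer to wildtype than replicates 1 and 2 were. The means were 243 ± 24.8 and 148 ± 52.1 (SD, n = 3 each). The log2 fold change was -0.73 (standard error 0.21, 95% interval -1.20 to -0.25), with an unadjusted p of 0.00740 and an adjusted p of 0.643 over all genes by edgeR's quasi-likelihood test, and it ranked 188 by p. Without *Pou4f3(Δ/+)* replicate 3 it was -1.03 with an adjusted p of 0.0183, and with that replicate alone against the 3 wildtype samples it was -0.26. Relative to *Coch* in the same sample, the FPKM of *Slc4a11* was 10.8%, 10.9% and 9.60% in wildtype against 6.48%, 4.97% and 9.86% in *Pou4f3(Δ/+)*. As such a share, *Pou4f3(Δ/+)* replicate 3 lay within the wildtype range, but only through wildtype replicate 5, the sample highest in *Coch*.

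The carbonic anhydrase genes *Car3* and *Car2* lay in opposite directions by mean, *Car3* lower and *Car2* higher in *Pou4f3(Δ/+)*, and neither passed the test. Carbonic anhydrases interconvert carbon dioxide and bicarbonate. *Car3* (ENSMUSG00000027559, chr3:14863512-14872523, plus strand) encodes a cytosolic isoform of low activity that is also abundant in muscle and fat, and *Car2* (ENSMUSG00000027562, chr3:14886273-14900770, plus strand) a highly active one that erythroid cells and osteoclasts also hold. The pair lie next to each other, so their sequences are given to show how far reads could be mistaken between them. The coding sequences of both main transcripts are 780 bases long and share 495 bases at the same positions (63.5%). Their longest identical run is 14 bases, coding bases 310 to 323, shown in capitals with 15 bases on each side, 5′ to 3′, from the GENCODE M21 transcripts.
Car2: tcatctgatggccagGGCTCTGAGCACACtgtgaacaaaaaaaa
Car3: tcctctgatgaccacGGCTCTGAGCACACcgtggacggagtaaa
No 50-base window of either main transcript was found in a transcript of another gene.

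*Car3* had 404, 440.2 and 515 FPKM in wildtype against 292, 205 and 477 in *Pou4f3(Δ/+)*. *Pou4f3(Δ/+)* replicates 1 and 2 lay below all wildtype samples, and replicate 3 lay inside the wildtype range. The means were 453 ± 57.0 and 324 ± 139 (SD, n = 3 each). The log2 fold change was -0.49 (standard error 0.25, 95% interval -1.07 to 0.08, adjusted p = 0.656 by edgeR). Without *Pou4f3(Δ/+)* replicate 3 it was -0.86 with an adjusted p of 0.0532, without replicate 2 it was -0.26, and with both replicates 1 and 2 left out it was 0.05. Markers of skeletal muscle, where *Car3* is abundant, summed to only 2.64 to 6.12 CPM over 7 genes in any sample, and 2 of the 7 passed the filter. Markers of fat cells summed to 48.0 to 60.2 CPM among wildtype samples, against 55.7, 89.0 and 52.1 CPM among the *Pou4f3(Δ/+)* samples. The highest sum, in replicate 2, came mainly from *Fabp4*, a fatty acid binding protein of fat cells and capillaries, at 67.5 FPKM, while *Adipoq*, the fat cell hormone adiponectin, was at 14.2 FPKM there and at 12.6 to 17.6 FPKM over all samples. Of the 5 fat cell markers 3 were tested, and all 3 were fitted above 0 (1 of 3 without *Pou4f3(Δ/+)* replicate 2), with 0 at an unadjusted p under 0.05. The part of muscle and fat cells in the level of *Car3* was not tested.

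*Car2* had 595, 573 and 409 FPKM in wildtype against 819, 609.5 and 557 in *Pou4f3(Δ/+)*. *Pou4f3(Δ/+)* replicate 1 was the highest sample, wildtype replicate 5 the lowest, and the groups overlapped. The means were 526 ± 101 and 662 ± 139 (SD, n = 3 each), which the fit gave as a log2 fold change of 0.34 (standard error 0.18, 95% interval -0.07 to 0.74, adjusted p = 0.661 by edgeR). It was 0.15 without *Pou4f3(Δ/+)* replicate 1, 0.19 without wildtype replicate 5 and 0.068 with *Pou4f3(Δ/+)* replicates 1 and 2 both left out. As a percentage of *Car3*, the FPKM of *Car2* was 147%, 130.1% and 79.4% in wildtype. In *Pou4f3(Δ/+)* it was 281%, 297% and 117%, so *Pou4f3(Δ/+)* replicate 3 again lay within the wildtype range only through wildtype replicate 5.

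*Aqp1* (ENSMUSG00000004655, chr6:55336432-55348555, plus strand) encodes a water channel of some spiral ligament fibrocytes that erythroid cells and endothelium also hold. It had 116.7, 117 and 98.5 FPKM in wildtype against 130.4, 118 and 123 in *Pou4f3(Δ/+)*. Every *Pou4f3(Δ/+)* sample was above every wildtype sample, but the gap between the nearest samples of the groups was small. The means were 111 ± 10.6 and 124 ± 6.19 (SD, n = 3 each), which the fit gave as a log2 fold change of 0.16 (standard error 0.09, 95% interval -0.05 to 0.36, adjusted p = 0.668 by edgeR). It was 0.085 without wildtype replicate 5, the smallest value with a sample left out.

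The other cells that hold *Car2* and *Aqp1* also differed between samples. All 8 erythroid markers tested had a fitted log2 fold change above 0, with a median of 0.33 and 2 at an unadjusted p under 0.05 by edgeR, and DESeq2 gave 1 of them, the globin gene *Hbb-bt*, an adjusted p of 0.0135. The number of the 8 at an unadjusted p under 0.05 was 5 by DESeq2, and by edgeR 6 without the filter. By edgeR it was 7 without *Pou4f3(Δ/+)* replicate 3, where 17.4% of all genes were, and 1 without wildtype replicate 5 or *Pou4f3(Δ/+)* replicate 1 or 2. With *Pou4f3(Δ/+)* replicates 1 and 2 both left out the erythroid median was -0.018. Their summed level was 8727 to 10205 CPM among wildtype samples, against 12111, 13548 and 9458 CPM among the *Pou4f3(Δ/+)* samples. Wildtype replicate 5, the sample lowest in both *Car2* and *Aqp1*, was also the lowest in erythroid markers, whereas the sample highest in them, *Pou4f3(Δ/+)* replicate 2, was not the highest in either gene. Osteoclast markers, 7 genes, summed to 1492 to 1951 CPM among wildtype samples, against 2036, 1742 and 1206 CPM among the *Pou4f3(Δ/+)* samples, with 5 of 7 fitted below 0 and a median of -0.12. The osteoclast median turned to 0.029 without wildtype replicate 3 and to 0.066 without *Pou4f3(Δ/+)* replicate 3, with 3 of 7 below 0 in each. It was -0.21 without wildtype replicate 4, -0.19 without wildtype replicate 5 and -0.45 without *Pou4f3(Δ/+)* replicate 1, and with *Pou4f3(Δ/+)* replicates 1 and 2 both left out all 7 were below 0, at a median of -0.71. Endothelial markers, 5 genes, summed to 265 to 309 CPM and to 283, 297 and 255 CPM. The part of these cells in the levels of *Car2* and *Aqp1* was not tested.

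**Figure D2:**
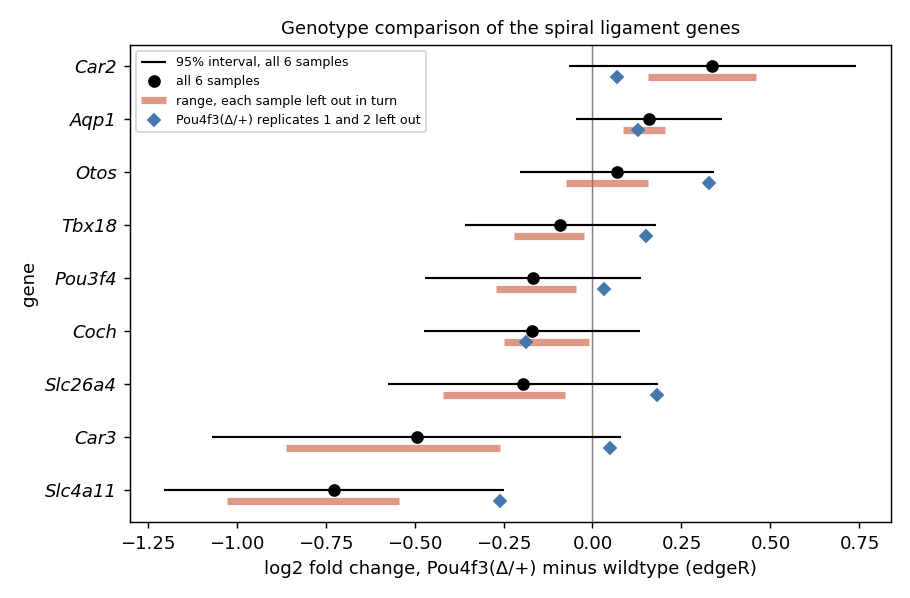
Log2 fold change of each gene, *Pou4f3(Δ/+)* minus wildtype, from edgeR. Black points and lines give the estimate and 95% interval over all 6 samples, orange bars the range when each sample was left out in turn, and blue diamonds the value with *Pou4f3(Δ/+)* replicates 1 and 2 both left out. The interval excludes 0 for *Slc4a11* alone, at -1.20 to -0.25, and its diamond lies at -0.26.

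For *Slc4a11*, *Car3* and *Slc26a4* the lower values came mainly from the same 2 samples. As log2 CPM minus the wildtype mean, *Slc4a11* was at -0.89, -1.17 and -0.25 in *Pou4f3(Δ/+)* replicates 1, 2 and 3, and *Car3* was at -0.64, -1.12 and 0.06. *Slc26a4* was at -0.45, -0.38 and 0.19. With replicates 1 and 2 both left out, where the lone remaining sample is assumed to vary like the wildtype samples, the fitted log2 fold changes of *Pou3f4*, *Slc26a4*, *Tbx18* and *Car3* were above 0. *Coch* at -0.19 and *Slc4a11* at -0.26 stayed below 0.

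**Figure D3:**
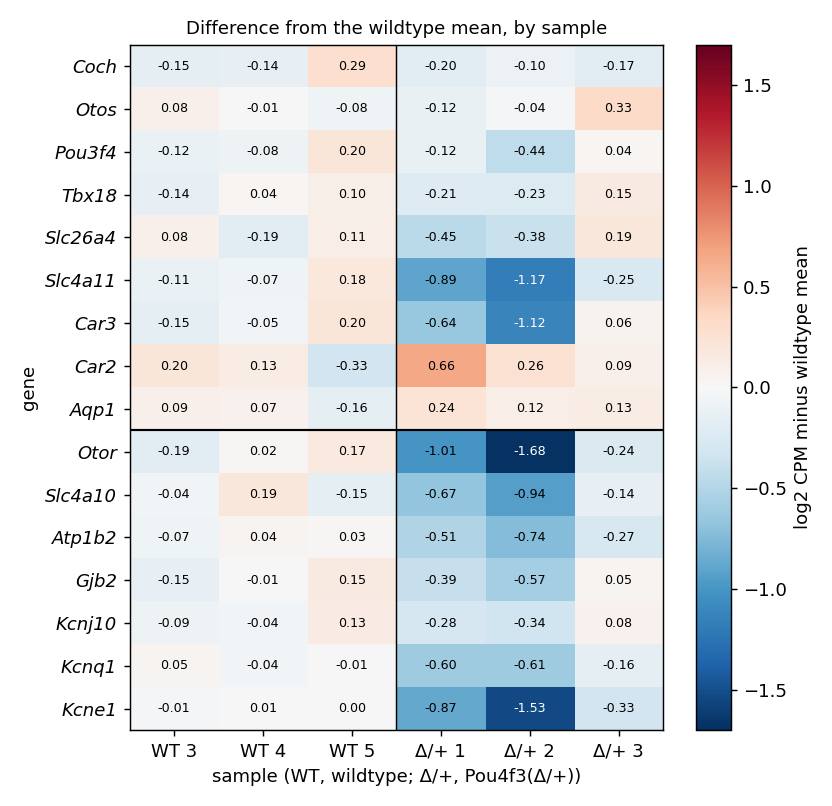
Log2 CPM of each gene minus its wildtype mean, by sample, for the 9 genes above the line and for *Otor*, *Slc4a10*, *Atp1b2*, *Gjb2*, *Kcnj10*, *Kcnq1* and *Kcne1* below it. Blue is lower and red is higher than the wildtype mean. *Slc4a11*, *Car3* and the lower 7 genes are lowest in *Pou4f3(Δ/+)* replicates 1 and 2, with *Otor* at -1.01 and -1.68 and *Slc4a11* at -0.89 and -1.17.

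Each gene was carried mainly by 1 transcript. Of 23 transcripts listed for the 9 genes, 19 passed the filter, 0 had an adjusted p under 0.05 (as did 0% of 38347 transcripts) and 1 had an unadjusted p under 0.05, beside 4.14% of all transcripts. That transcript, ENSMUST00000099362, is the main coding form of *Slc4a11* and held 89.5% to 94.6% of its FPKM. It had 207, 217 and 257 FPKM in wildtype against 118, 96.4 and 192 in *Pou4f3(Δ/+)*, and the fitted log2 difference was -0.75 with an SE of 0.25 and an adjusted p of 0.999 by edgeR. ENSMUST00000144945, a retained-intron form of *Slc4a11*, was at 9.09 ± 1.00 and 7.20 ± 0.995 FPKM (SD, n = 3 each), with a fitted log2 difference of -0.34. The main transcript of *Coch*, ENSMUST00000085412, held 95.2% to 95.9% of its FPKM, and a second coding form, ENSMUST00000164782, held 3.19% to 3.85%. The main forms of *Car2* (ENSMUST00000029078), *Car3* (ENSMUST00000029076), *Otos* (ENSMUST00000053144) and *Slc26a4* (ENSMUST00000001253) each held at least 93.7%.

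The other fibrocyte genes and the families of the members were described by their counts and medians, and none of their genes had an adjusted p under 0.05 by edgeR over all 6 samples. Of 8 other genes known from spiral ligament fibrocytes or the otic mesenchyme, 6 had a log2 fold change below 0, the median was -0.14, and 2 had an unadjusted p under 0.05. With single samples left out, this median lay between -0.21 (without wildtype replicate 3) and -0.076 (without wildtype replicate 5, with -0.078 without *Pou4f3(Δ/+)* replicate 2), and 0 (without *Pou4f3(Δ/+)* replicate 1) to 4 (without *Pou4f3(Δ/+)* replicate 3) of the 8 had an unadjusted p under 0.05. *Otor*, which encodes the secreted protein otoraplin, had 36.9, 43.4 and 47.4 FPKM in wildtype against 20.8, 12.7 and 36.3 in *Pou4f3(Δ/+)*, without overlap. Its log2 fold change stood at -0.88 with an SE of 0.30 and an adjusted p of 0.643, and it took the same order of *Pou4f3(Δ/+)* samples as *Slc4a11*. *Vim*, the intermediate filament vimentin, was at a log2 fold change of -0.25 and *Cald1*, the actin-binding caldesmon, at -0.17, both with overlapping groups.

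The 11 genes of potassium uptake and recycling around the fibrocytes all had a fitted log2 fold change below 0, with a median of -0.11. The count was also 11 under upper quartile normalization, 10 by DESeq2, with its size factors, without the filter and with only genes of at least 1 FPKM, and 9 in the fits on FPKM. Leaving out a sample gave 8 without wildtype replicate 5, 9 without wildtype replicate 4 or *Pou4f3(Δ/+)* replicate 2, and 11 otherwise, and the median was -0.051 without *Pou4f3(Δ/+)* replicate 2 and -0.19 without replicate 3. With *Pou4f3(Δ/+)* replicates 1 and 2 both left out, 9 of the 11 were above 0. *Atp1b2*, a beta subunit of the sodium-potassium pump, had 163, 180.1 and 174 FPKM in wildtype against 123, 103 and 148 in *Pou4f3(Δ/+)*, without overlap. Its log2 fold change was -0.49 (standard error 0.12), with an adjusted p of 0.643 by edgeR and 0.0168 by DESeq2. *Gjb2*, the gap junction protein connexin 26, was at -0.29 and *Kcnj10*, a potassium channel, at -0.17, both overlapping. Among 6 markers of the stria vascularis, all 6 were below 0, with a median of -0.23. Testing without the filter or only genes of at least 1 FPKM gave 5 of 6, and leaving out single samples gave 4 to 6, the 4 without *Pou4f3(Δ/+)* replicate 3, with a median of -0.12 without wildtype replicate 5. Of these, *Kcnq1* and *Kcne1*, the subunits of the channel that secretes potassium into the endolymph, were at -0.45 and -0.84 with groups that did not overlap, at adjusted p values of 0.643 each by edgeR and of 0.225 and 0.0359 by DESeq2. The stria markers summed to 519 to 555 CPM among wildtype samples, against 482, 449 and 503 CPM among the *Pou4f3(Δ/+)* samples, lowest in the sample where *Slc4a11*, *Car3* and *Otor* were lowest. *Kcnq1* and *Kcne1* were picked for naming after their values were seen.

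Among relatives of *Slc4a11*, 7 of 9 other Slc4 genes were tested, 4 below 0 and 3 above, with a median of -0.08. Leaving out a sample gave 6 of 7 below 0 without wildtype replicate 5 or *Pou4f3(Δ/+)* replicate 1, 5 without *Pou4f3(Δ/+)* replicate 3 and 4 otherwise, with medians from -0.12 (without *Pou4f3(Δ/+)* replicate 1) to -0.048 (without wildtype replicate 3, with -0.049 without *Pou4f3(Δ/+)* replicate 2). *Slc4a10*, a sodium-bicarbonate transporter, had 37.3, 45.5 and 35.7 FPKM in wildtype against 25.8, 21.4 and 35.3 in *Pou4f3(Δ/+)*, and the fitted log2 difference was -0.55 with an SE of 0.18 and an adjusted p of 0.643. *Slc4a1*, the band 3 anion exchanger of erythroid cells, had 225, 227 and 162 FPKM in wildtype against 317, 246 and 229.7 in *Pou4f3(Δ/+)*, and the fitted log2 difference was 0.37 with an SE of 0.16 and an adjusted p of 0.643. Both lay past an unadjusted p of 0.05 without overlap in FPKM, 1 lower and 1 higher. *Slc4a3*, an anion exchanger, was at -0.22.

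Of 14 other carbonic anhydrase genes, 12 were tested, 7 below 0 and 5 above, with a median of -0.07, and the fits on FPKM gave 6 and 6. This median was from -0.20 without wildtype replicate 4 to 0.014 without wildtype replicate 5, and it moved by over 1.5 times without each of the other samples but *Pou4f3(Δ/+)* replicate 1. *Car11*, a family member without enzyme activity, was at a log2 fold change of -0.65 and *Car12*, a membrane-bound isoform, at -0.20, both at an unadjusted p under 0.05 with overlapping groups. None of the 12 had an unadjusted p under 0.05 in the limma fits on FPKM. By edgeR none did without wildtype replicate 5, or without *Pou4f3(Δ/+)* replicate 1 or 2. *Car1*, an erythroid isoform, was at 0.39. Of 11 other aquaporin genes, 6 were tested and 5 were below 0, with a median of -0.37. Only 3 of the 6 were below 0 without wildtype replicate 3, and the median was -0.18 without wildtype replicate 5, -0.53 without *Pou4f3(Δ/+)* replicate 3 and -0.069 with *Pou4f3(Δ/+)* replicates 1 and 2 both left out. *Aqp4*, a water channel of supporting cells and glia, had 11.6, 13.2 and 14.0 FPKM in wildtype against 7.82, 7.24 and 12.9 in *Pou4f3(Δ/+)*, and the fitted log2 difference was -0.48 with an SE of 0.19 and an adjusted p of 0.643. *Aqp3* was at -2.61 through wildtype replicate 5 alone, at 6.53 FPKM where the other 5 samples were at 0.13 to 0.91. *Aqp5* was at -0.52, and it too was highest in wildtype replicate 5. Without *Pou4f3(Δ/+)* replicate 3, where edgeR called 1.1% of all genes, it called 5 genes of these lists together with *Slc4a11*, all lower. They were 2 of 8 fibrocyte genes, *Otor* (-1.32) and the calcium-binding *S100b* (-0.61), and 1 of 11 potassium genes, *Atp1b2* (-0.61). The others were *Slc4a10* (-0.80), 1 of 7 Slc4 genes, and *Aqp4* (-0.77), 1 of 6 aquaporin genes. With replicates 1 and 2 both left out these 5 were at -0.25, 0.32, -0.27, -0.15 and -0.02, in that order. Among cell type markers, the fit without replicate 3 called 6 of 9 for B cells and 1 of 8 for erythroid cells, all higher. It called 2 of 6 for the stria vascularis and 1 each for pericytes and smooth muscle, Schwann cells and osteoblasts, all lower.

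Among relatives of *Slc26a4*, 10 other Slc26 genes, 7 were tested, 5 above 0 and 2 below, with a median of 0.02 that was below 0 in the fits on FPKM. With single samples left out this median lay between -0.0063 (without wildtype replicate 5) and 0.0598 (without *Pou4f3(Δ/+)* replicate 1), and *Slc26a1*, *Slc26a11* and *Slc26a10* had the smallest p at 0.576, 0.708 and 0.730, unadjusted. Of the genes known with pendrin, only *Atp6v0a4*, a proton pump subunit, passed the filter, with a log2 fold change of -0.32, which was -0.12 without wildtype replicate 5 and -0.21 without *Pou4f3(Δ/+)* replicate 2. The pendrin regulator *Foxi1* had 1 to 10 counts per sample, too few to compare. Of 8 other Pou3f and Tbx genes 7 were tested, 6 below 0 (5 in the fits on FPKM) and 1 above, with a median of -0.11 and none at an unadjusted p under 0.05. This median was -0.043 without wildtype replicate 5, -0.032 without *Pou4f3(Δ/+)* replicate 2 and -0.19 without wildtype replicate 3, where 2 of the 7 had an unadjusted p under 0.05. *Pou3f1*, *Tbx1* and *Pou3f3*, all developmental transcription factors, had log2 fold changes of -0.50, -0.15 and -0.11.

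Markers of further cell types in the same samples moved as follows, and their part in the members' values was not tested. All 9 B cell markers were above 0, with a median log2 fold change of 0.88 and 9 at an unadjusted p under 0.05 by edgeR, and DESeq2 gave 5 of them an adjusted p under 0.05. With *Pou4f3(Δ/+)* replicates 1 and 2 both left out the B cell median was 0.21. The summed level of 5 pericyte and smooth muscle markers, cells that also hold *Tbx18*, was 395 to 475 CPM among wildtype samples, against 343, 317 and 431 CPM among the *Pou4f3(Δ/+)* samples, with 4 of 5 below 0 and a median of -0.39. This median was -0.25 without wildtype replicate 5, -0.20 without *Pou4f3(Δ/+)* replicate 2, -0.66 without replicate 3 and -0.018 with replicates 1 and 2 both left out. *Tbx18* took the same order across the 3 *Pou4f3(Δ/+)* samples. Schwann cell markers, 5 genes, summed to 1861 to 2174 CPM and to 1609.8, 1638 and 2181 CPM, and 6 osteoblast markers to 1236 to 1702 CPM and to 1185, 1379 and 946 CPM. Of the osteoblast markers 4 were below 0 and 2 above, with a median of -0.11 and 2 at an unadjusted p under 0.05, both without overlap. This median was -0.19 without wildtype replicate 3, -0.027 without wildtype replicate 5 and -0.27 without *Pou4f3(Δ/+)* replicate 2. *Alpl*, alkaline phosphatase, was at 66.7, 76.5 and 85.1 FPKM in wildtype against 35.7, 20.2 and 55.5 in *Pou4f3(Δ/+)*, the same order of mutant samples as *Slc4a11*, with a log2 fold change of -1.07 (adjusted p = 0.643 by edgeR and 0.455 by DESeq2). *Sp7*, a transcription factor of osteoblasts, was at -0.63 (adjusted p = 0.643 by edgeR and 0.00553 by DESeq2). Both were named after their values were seen. In the rest of this list, *Bglap* was at 0.38, *Bglap2* at 0.26, *Ibsp* at -0.21 and *Dmp1* at -0.01, all with overlapping groups. The 7 hair cell markers summed to 99.97 to 105 CPM among wildtype samples, against 93.1, 109.5 and 98.9 CPM among the *Pou4f3(Δ/+)* samples, with a median of -0.06 and 0 at an unadjusted p under 0.05. This median took either sign with single samples left out, from -0.23 without *Pou4f3(Δ/+)* replicate 2 to 0.090 without replicate 3, with 0.028 without replicate 1.

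**Figure D4:**
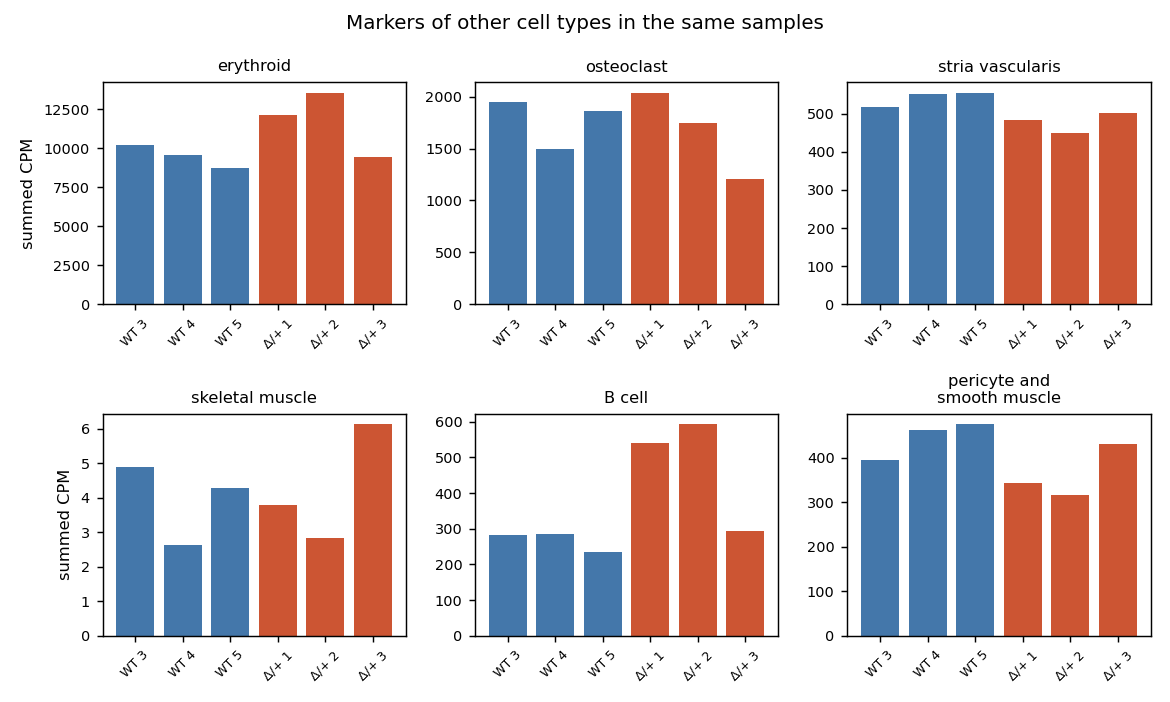
Summed CPM of the markers of 6 other cell types by sample, with wildtype (WT) in blue and *Pou4f3(Δ/+)* (Δ/+) in orange. Each bar is 1 sample, and all axes start at 0. B cell markers stand at 539 and 593 CPM in *Pou4f3(Δ/+)* replicates 1 and 2 and at no more than 295 elsewhere, and skeletal muscle markers do not exceed 6.12 CPM.

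The pattern of *Coch* across the 6 samples was unlike that of the other members. Among 11388 genes with at least 10 CPM on average, the 5 with the highest Pearson correlation with *Coch* in log2 CPM (n = 6 samples, a description that rests mainly on the high value in wildtype replicate 5) were *Tjp3* (0.991), *Cfb* (0.989), *Sema3f* (0.989), *Tmc4* (0.986) and *Sp110* (0.979). All 5 were highest in wildtype replicate 5, as *Coch* was, and *Cfb* was at 25.1 FPKM there and at 2.36 to 3.50 in the other 5 samples. Of the members, the nearest to *Coch* was *Pou3f4*, at rank 1662 (0.546), and *Aqp1* was near the other end, at rank 11286 (-0.93).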

How the data were processed

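Cochlear RNA of 3 wildtype and 3 *Pou4f3(Δ/+)* samples was sequenced with paired-end reads. For each transcript the authors deposited an expected count, an estimate that is not normalized, and an FPKM value, scaled to transcript length and sample depth. The labels list the build mm8 without its role and name DESeq2. The aligner, the counting program and the strand setting are not given in the sources used here. Of the transcripts, 99.5% were found in GENCODE M21 (GRCm38), the source of coordinates and sequences. Expected counts need not be whole (82.2% of those above 0 were not), which lets reads be divided among similar transcripts.

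Counts were summed per symbol, rounded and tested with edgeR 4.0.16 in R 4.3.3: filterByExpr (minimum count 10), TMM, the quasi-likelihood test without covariates, and Benjamini-Hochberg adjustment over all genes or transcripts tested, with a threshold of 0.05. Standard errors are the log2 fold change over the square root of F. One count per kilobase is worth 0.0565 to 0.0700 FPKM. Samples were grouped by the labelled genotype. No 2 samples agreed within counting noise (chi-square per degree of freedom 6.89 to 24.2). The code was tested on simulated data.

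Alternatives were DESeq2 1.42.0, its size factors in edgeR, upper quartile normalization, no filter, a mean FPKM of at least 1, limma 3.58.1 on log2(FPKM + 0.5) and with 0.1 or 1 as pseudocount, a threshold of 0.1, each sample left out, and *Pou4f3(Δ/+)* replicates 1 and 2 both left out. The members and lists were chosen with earlier results of these data known. Named are all members, their most abundant transcripts and those at an unadjusted p under 0.05 with a mean FPKM of at least 1, from each list the 3 genes with the smallest p and any at an unadjusted p under 0.05, and the 5 genes most correlated with *Coch*. Other names were chosen after their values were seen.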

Additional observations from a re-analysis of the deposited data

How the results depend on the processing

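The number of members with an adjusted p under 0.05 was 0 over all 6 samples, 0 under each of 9 alternatives that kept all samples, and 0 to 1 when each sample was left out; the 1 was *Slc4a11* (-1.03, adjusted p = 0.0183) without *Pou4f3(Δ/+)* replicate 3. Its log2 fold change lay between -0.76 and -0.72 under the 9 alternatives and between -1.03 and -0.54 with a sample left out. Of 144 values of members under alternatives, 138 kept their direction and side of the threshold. The 5 that changed sign were *Otos* without *Pou4f3(Δ/+)* replicate 3 (-0.073, range -0.073 to 0.156 with each sample left out) and, with *Pou4f3(Δ/+)* replicates 1 and 2 both left out, *Pou3f4* (0.033), *Slc26a4* (0.18), *Tbx18* (0.15) and *Car3* (0.049). So did 4 of 112 values of their main transcripts: ENSMUST00000053144 of *Otos* (-0.084, range -0.084 to 0.160) without replicate 3, and ENSMUST00000001253 of *Slc26a4* (0.18), ENSMUST00000034991 of *Tbx18* (0.15) and ENSMUST00000029076 of *Car3* (0.046) without replicates 1 and 2. The cause was not tested. Over all genes, calls numbered 64 by DESeq2, 9 of 27491 without the filter, 1 with limma at a pseudocount of 0.1, 193 without *Pou4f3(Δ/+)* replicate 3, 3 without wildtype replicate 4 and 6 with replicates 1 and 2 both left out. No paired analysis was possible because the groups share only 1 replicate number.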
